A study of Mus musculus with 2 samples.

Results

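Ifng, Il17a, Il17f, Il22, Il10, Il4, Il5, Il13, Tnf and Csf2, 10 of the 32285 genes in the matrices, encode cytokines by which lymphocytes, mast cells and macrophages act on the gut wall. All 10 were chosen by name as the main effector products of interferon-gamma, IL-17, type 2, regulatory and inflammatory responses, and their molecules were counted by library and by cell class. The polyp library held polyps pooled from 3 Lkb1flox/+;Myh11-Cre/ERT2 mice, in which a tamoxifen-inducible Cre driven by the smooth muscle promoter Myh11 removes 1 allele of the tumour suppressor gene Lkb1 (symbol Stk11). The normal library held normal duodenum pooled from 3 WT mice, Lkb1+/+;Myh11-Cre/ERT2, which carry the same Cre, so both groups share it. Each group was 1 library of droplet single-cell RNA-seq counting unique molecular identifiers (UMIs), with no map from cells to mice. There was therefore no replicate and no test, every interval below is a 95% interval for counting error only, and the source label of both libraries reads duodenum although the design names polyps. Age and tamoxifen dosing are not given in the sources used here.

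In the gut, conventional T cells, gamma-delta T cells and innate lymphoid cells divide these cytokines among them. Interferon-gamma is the product of cytotoxic and type 1 cells. IL-17A, IL-17F and IL-22 come from type 17 cells and act on the epithelium to induce antimicrobial proteins, and IL-4, IL-5 and IL-13 are the type 2 cytokines of T helper 2 cells, group 2 innate lymphoid cells, mast cells and basophils. IL-10 restrains inflammation, whereas TNF and GM-CSF (the product of Csf2) activate myeloid cells.

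By gene identifier, the GENCODE annotation of GRCm38 places the 10 genes on 4 chromosomes, and several are neighbours. Il17a (chromosome 1, 20730905 to 20734496, plus strand) and Il17f (chromosome 1, 20777146 to 20790617, minus strand) have annotated starts 59.7 kb apart. Il4 (chromosome 11, 53602982 to 53618669, minus strand) and Il13 (chromosome 11, 53631324 to 53634702, minus strand) have starts 16.0 kb apart, with Il5 86.1 kb beyond Il13. Il22 and Ifng lie 236 kb apart on chromosome 10. The 250 bases before the RefSeq start sites (GRCm38.p6) of the IL-17 pair are shown because these genes were detected together in T cells, with capitals marking AGGTCA on either strand, the core bound by the nuclear receptor ROR-alpha, the product of Rora. The windows are chr1:20730655-20730904 (plus strand) for Il17a and chr1:20784271-20784520 (minus strand) for Il17f, the latter 6347 bases inside the longer annotated gene.
Il17a: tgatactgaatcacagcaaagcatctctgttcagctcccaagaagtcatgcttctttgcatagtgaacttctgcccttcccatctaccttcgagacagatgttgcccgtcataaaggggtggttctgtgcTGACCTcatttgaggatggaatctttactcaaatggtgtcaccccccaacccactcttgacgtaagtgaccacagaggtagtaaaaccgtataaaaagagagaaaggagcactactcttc
Il17f: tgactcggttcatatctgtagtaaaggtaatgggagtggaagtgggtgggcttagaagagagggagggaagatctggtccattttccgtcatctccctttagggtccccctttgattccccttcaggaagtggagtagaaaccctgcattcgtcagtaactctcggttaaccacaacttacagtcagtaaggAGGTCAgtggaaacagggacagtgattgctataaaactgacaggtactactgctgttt
Each window held 1 AGGTCA, 120 bases before the start in Il17a and 58 in Il17f, and no other member with a promoter entry held one. Of 32851 promoter windows of the same length in the table, 14.0% held it, and a match is a description of the letters only.

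The windows of the type 2 pair Il4 (chr11:53618666-53618915, minus strand) and Il13 (chr11:53634703-53634952, minus strand) are shown because mast cells of the polyp library held both transcripts. Capitals mark GGAAA on either strand, the core bound by NFAT, the calcium-dependent factor that antigen and IgE receptors activate.
Il4: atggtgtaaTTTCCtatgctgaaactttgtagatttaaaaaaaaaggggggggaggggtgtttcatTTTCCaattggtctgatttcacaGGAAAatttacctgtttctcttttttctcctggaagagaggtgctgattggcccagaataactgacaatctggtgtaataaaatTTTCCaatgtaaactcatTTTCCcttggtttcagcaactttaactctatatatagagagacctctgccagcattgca
Il13: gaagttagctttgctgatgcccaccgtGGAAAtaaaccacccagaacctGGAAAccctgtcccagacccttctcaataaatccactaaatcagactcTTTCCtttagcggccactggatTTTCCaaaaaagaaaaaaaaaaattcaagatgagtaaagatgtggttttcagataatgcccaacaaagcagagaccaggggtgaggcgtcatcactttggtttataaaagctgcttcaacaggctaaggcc
Il4 held 5 such cores and Il13 held 4, against 0 in Il17a and from 1 to 3 in the other members with an entry. At least 1 core stood in 55.6% of all promoter windows.

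Of 9950 barcodes in the normal and 14327 in the polyp library, 3167 and 7887 were kept. Median depth was 2421 and 2318 UMIs per kept cell. More than 25% of UMIs were mitochondrial in 64.85% of normal and 39.1% of polyp barcodes, and 44 barcode sequences occurred in both libraries, 9 of them kept in both. Stk11 was counted 603 and 1951 times in kept cells, and these counts do not separate the floxed from the intact allele. Cells were assigned by marker UMIs: T cells by at least 2 Cd3 UMIs, and T subsets by Trdc (the gamma-delta receptor), Cd8b1 or Cd4. T cells numbered 817 and 493, Cd3-negative lymphoid cells 16 and 159, mast cells 0 and 70, and myeloid cells 26 and 311. Cells that no gate or equal gates took numbered 1174 and 2784, with low median depths of 687 and 869 UMIs.

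Most molecules of each cytokine lay in a few classes. In the normal library T cells held 97.5% of the 1538 Ifng UMIs, 87.8% of the 115 Il17a UMIs, 98.3% of the 58 Il22 UMIs and 72.1% of the 61 Il10 UMIs. In the polyp library T cells held 70.0% of 310 Ifng, 69.1% of 583 Il17a, 70.4% of 216 Il22 and 32.3% of 192 Il10 UMIs. The type 2 genes were counted 5 times (Il4), 1 time (Il5) and 1 time (Il13) in all kept normal cells, against 293, 33 and 84 times in kept polyp cells. A further 5 normal and 21 polyp Il13 UMIs lay in barcodes that were not kept. Tnf was spread over T, myeloid and epithelial cells in both libraries, and over mast cells in the polyp library. Because the libraries differ in their makeup, a level over all cells cannot tell fewer cells of a type from less RNA per cell. The comparisons below are therefore made within classes. T cells as a whole are still a mixture, and levels over them carry the same limit. Of these, 341 of 817 normal and 32 of 493 polyp cells fell in the Cd8b1 gate. The Trdc gate took 139 and 39, and the Cd4 gate 41 and 75.

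**Figure D1:**
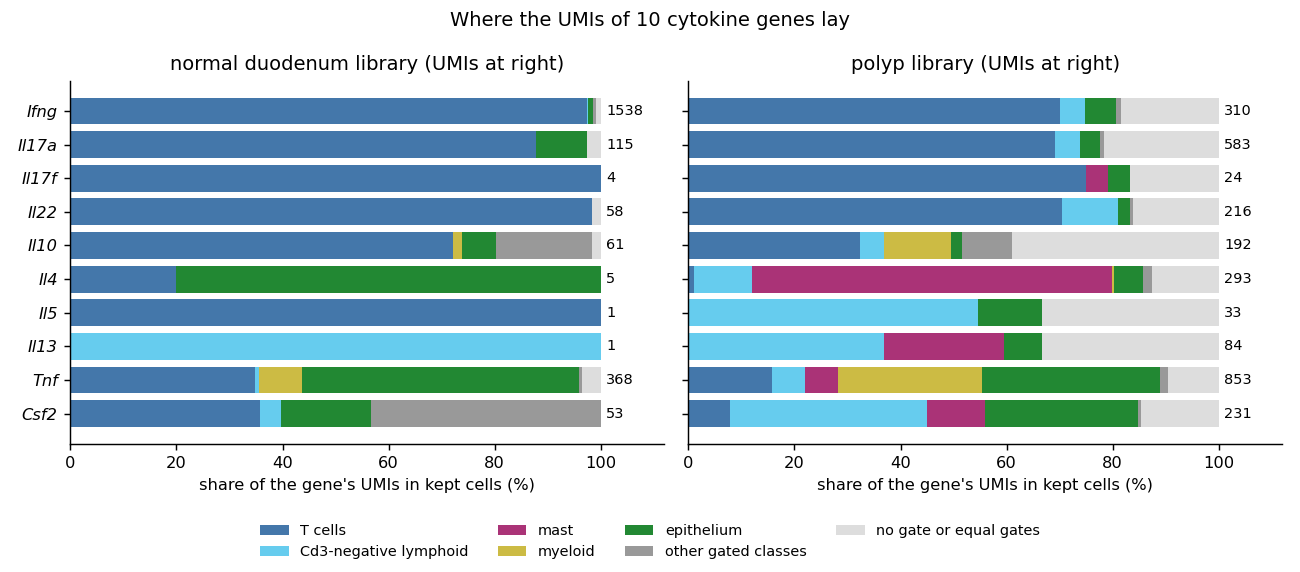
Share of each gene's UMIs in kept cells (percent, x axis) by cell class for the normal duodenum (left) and polyp (right) libraries, with the number of UMIs at the right of each bar. T cells hold nearly all normal Ifng and Il22 molecules, while in the polyp library mast and Cd3-negative lymphoid cells hold most assigned Il4, Il5 and Il13.

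In T cells as a whole, 6 members were higher in the polyp library and Ifng was lower. Levels are UMIs per 1000000 UMIs of the class (CPM), and a gene with at least 20 UMIs over both libraries was called where the ratio passed 1.5-fold with an interval clear of 1. Of 8738 genes measured in T cells by that rule, 16.4% were higher and 16.5% lower in the polyp, against 6 higher and 1 lower of the 7 members measured. Il4, Il5 and Il13 had at most 3 UMIs in T cells of either library. The median gene shifted by -0.05 log2 in all T cells, by -0.12 in Trdc and -0.11 in Cd4 T cells, and by 0.10 in epithelium.

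Ifng, whose product activates macrophages and induces antigen presentation in the epithelium, reached 538 CPM (511 to 566) in T cells of normal duodenum against 180 CPM (157 to 205) in those of the polyps, 2.99-fold lower (2.59 to 3.47). It was found in 376 of 817 normal T cells (46.0%, 42.6 to 49.5) and 88 of 493 polyp T cells (17.8%, 14.6 to 21.5). After each cell was thinned to 1000 UMIs, leaving out 28 and 9 shallower cells, the shares were 27.8% and 12.4%. In epithelial cells, which do not make interferon-gamma, 1.19% and 0.316% of cells held an Ifng UMI at median depths of 12903 and 9790 UMIs, against 3178 and 2197 in T cells. The T cell shares therefore stood above that background in both libraries.

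Il17a, the neutrophil-recruiting cytokine of type 17 cells, showed the opposite order. T cells of normal duodenum held 36.3 CPM (29.5 to 44.0) and those of the polyps 334 CPM (302 to 368), a 9.21-fold difference (7.39 to 11.6). It was found in 14 of 817 normal (1.71%) and 61 of 493 polyp T cells (12.4%), and in 1.01% and 9.50% after thinning. Of epithelial cells, unthinned, 0.108% and 0.374% held it. One normal cell held 59 of the 101 normal UMIs, and without the top cell of each library the ratio was 20.02 (14.5 to 28.2).

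Il17f, the close relative of Il17a, had 4 UMIs in 2 normal T cells and 18 UMIs in 5 polyp T cells, a ratio of 10.4 with a wide interval (3.42 to 42.2). With 10 of the polyp UMIs in 1 cell, this ratio ran from 4.86 with a minimum of 3 Cd3 UMIs to 18.5 without the top cells. Il22, which drives epithelial repair and antimicrobial defence, stood at 20.5 CPM (15.5 to 26.5) and 126 CPM (107 to 148), a 6.15-fold difference (4.51 to 8.50). Its share rested on few cells: 9 of 817 normal and 30 of 493 polyp T cells, or 0.887% and 3.93% after thinning. Of epithelial cells, unthinned, 0 and 0.144% held it. A near-identical copy, Iltifb, is counted in its own row with 3 UMIs in normal and 8 in polyp T cells, so reads of the pair could be split between the rows.

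Il10, Tnf and Csf2 were also higher in polyp T cells. For Il10 the normal level was 15.8 CPM and the polyp level 51.4 CPM, a ratio of 3.25 (2.17 to 4.90). Without the top cell of each library the ratio was 4.97, and with a minimum of 1 Cd3 UMI it was 4.99. Il10 was found in 15 and 28 T cells, or 0.634% and 4.55% after thinning, against 0.323% and 0.0862% of epithelial cells unthinned. Tnf stood at 45.9 and 111 CPM, a ratio of 2.42 (1.88 to 3.10), and was found in 9.91% and 17.2% of T cells. Epithelial cells, far deeper, held Tnf in 9.81% and 5.60% of cells, and after thinning the shares were 4.56% and 9.30% in T cells against 0.951% and 0.918% in epithelium. Csf2 had 19 and 18 UMIs, 6.82 and 14.9 CPM, a ratio of 2.19 whose interval reached down to 1.08. With a minimum of 3 Cd3 UMIs it was 1.90 (0.863 to 4.06), which ended the call. Of the 6 higher members, Csf2 had the smallest ratio and the interval closest to 1.

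The subsets divided these differences unequally, and the same gate held unlike cells in the 2 libraries. Cd8a, the partner of Cd8b1 that also marks intraepithelial lymphocytes, was found in 128 of 139 normal Trdc T cells and in 0 of 39 polyp Trdc T cells. Within the Cd8b1 gate, 83.0% of normal and 21.9% of polyp cells held a Cd8a UMI. The gamma constant genes Tcrg-C1, Tcrg-C2 and Tcrg-C4, not used by the gate, were found in 96.4% of normal and 79.5% of polyp Trdc T cells. Tcrg-C UMIs were also found in 79.8% of normal Cd8b1 T cells, so they do not set gamma-delta cells apart there. Trac, the alpha chain constant gene, was found in 76.3% and 10.3% of Trdc T cells. What part these differences in makeup had in the cytokine ratios was not tested.

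In Trdc T cells Ifng was nearly absent from the polyp library and Il17a was found only there. Ifng was counted 148 times in 139 normal cells (274 CPM, 231 to 321) and 2 times in 39 polyp cells (21.4 CPM), 12.8-fold lower with an interval from 3.48 to 107, and without the top cells the ratio was 0.0461. Il17a was counted 0 times in the normal cells and 80 times in the polyp cells (856 CPM, 679 to 1065). With the normal count set to a floor of 3 UMIs per library, the polyp level was 154-fold higher. The lower counting limit of the ratio was 123. Against the floor the ratio was 116 with cells passing a single gate only and 121 without the top cells. Of polyp Trdc T cells 13 of 39 held Il17a (33.3%, 19.1 to 50.2; 23.7% after thinning), and 0 of 139 normal cells held an Il17a UMI, which limits cells with a UMI, not cells expressing the gene, to 2.16% by the same floor of 3. Tnf was counted 7 times in normal and 21 times in polyp Trdc T cells, 12.9 and 225 CPM, a ratio of 17.4 (7.11 to 48.4), or 11.6 as a mean over cells, with 13 of 39 polyp cells positive. Of the 3 members measured here 2 were higher and 1 lower, against 10.8% and 10.9% of 3472 genes.

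In Cd8b1 T cells Ifng stood at 649 CPM (605 to 696) in 341 normal cells and at 449 CPM (327 to 603) in 32 polyp cells, a ratio of 0.692 (0.499 to 0.938) that did not pass 1.5-fold. It passed with doublets kept (0.666), with a minimum of 3 Cd3 UMIs (0.544) and without the top cells (0.583). Tnf had 61 and 4 UMIs, a ratio of 0.823 (0.217 to 2.22). Of genes measured in this subset 7.67% were higher and 5.73% lower, and 0 of the 2 members measured were called. The 13 Il17a UMIs of polyp Cd8b1 T cells lay in 3 cells, against 0 UMIs in normal cells, below the minimum of 20.

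In Cd4 T cells, 41 normal and 75 polyp, Ifng was again lower, 392 against 104 CPM, a ratio of 0.266 (0.157 to 0.438). Il17a was counted 0 and 32 times, the latter in 7 polyp cells. This was 7.16-fold higher with the normal count set to the floor of 3 UMIs, with a lower counting limit of 5.49. With no barcode filter the ratio was 1.92 (0.941 to 4.21), which ended the call, and without the top cells it was 4.63 against the floor. Il22 stood at 60.8 and 95.1 CPM with overlapping intervals, from 2 and 3 cells, and with cells passing a single gate only the ratio fell below 1, to 0.698 (0.234 to 2.04). Il10 was lower, 149 against 49.8 CPM with a ratio of 0.335 (0.147 to 0.722), but 18 of the 22 normal UMIs lay in 1 cell and the ratio without the top cell of each library was 0.832 (0.179 to 4.19). Polyp Cd4 T cells also held 946 UMIs of Jchain, a plasma cell gene, at 4286 CPM against 94.6 CPM in the normal cells, and its part in these values was not tested. Of the 5 members measured 1 was higher and 2 were lower, against 10.2% and 13.3% of 2133 genes.

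T cells with none of the 3 subset markers, 294 normal and 346 polyp, held most of the Il17a and Il22 found in polyp T cells. This gate too held unlike cells in the 2 libraries. Cd8a was found in 60.9% of normal and 5.49% of polyp cells, and Tcrg-C UMIs in 64.3% and 8.67%. The Cd4 T cell genes Cd40lg, Icos, Cd5 and Foxp3 summed to 358.5 and 615 CPM, against 643 CPM in polyp Cd4 T cells. Ifng stood at 568 and 186 CPM, a ratio of 0.328 (0.271 to 0.395). Il17a stood at 118 and 350 CPM, a ratio of 2.98 (2.36 to 3.78). One cell held 59 of the 101 normal UMIs, and without the top cells the ratio was 6.16 (4.42 to 8.77). Il22 stood at 55.9 and 165 CPM, a ratio of 2.95 (2.11 to 4.20), although 56 of the 131 polyp UMIs lay in 1 cell. Il10 stood at 12.8 and 64.2 CPM, a ratio of 5.02 (2.58 to 10.7) that was 8.85 with a minimum of 1 Cd3 UMI, and Tnf at 52.4 and 113 CPM. Of the 5 members measured 4 were higher and 1 lower, against 14.2% and 14.5% of 6148 genes.

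**Figure D2:**
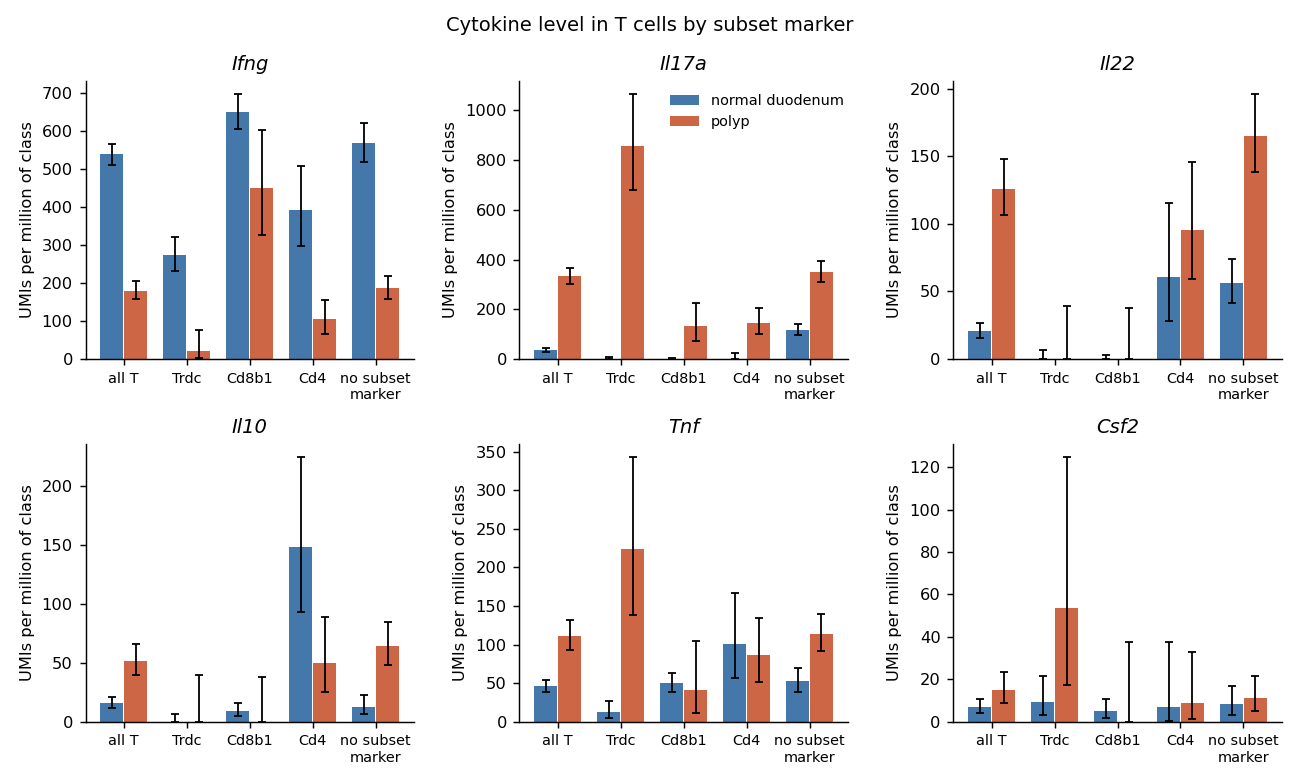
Level of 6 cytokine genes in T cells (CPM, y axis, linear from 0) by subset marker, normal in blue and polyp in orange, with 95% Poisson intervals for counting error. Ifng is lower in polyp Trdc, Cd4 and unmarked T cells, while Il17a reaches 856 CPM in polyp Trdc T cells.

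The order of levels over classes of at least 30 cells shows where each cytokine peaked. For Ifng, normal Cd8b1 T cells (649 CPM) led, with normal unmarked, polyp Cd8b1 and normal Cd4 T cells next, each overlapping its neighbour's interval. For Il17a, polyp Trdc T cells were clear of polyp unmarked T cells (350 CPM), which were clear of polyp Cd4 T cells (145 CPM). For Il22, polyp unmarked, polyp Cd4 and polyp Cd3-negative cells (165, 95.1 and 62.1 CPM) followed each other with overlapping intervals. For Il10, normal Cd4 T cells led with 149 CPM, the value set by 1 cell, ahead of polyp unmarked T cells with 64.2 CPM.

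Within T cells a minority of the positive cells held many of the molecules, with high counts per cell for Il17a and Ifng. Tnf counts per cell were low: in polyp T cells 59 of its 85 positive cells held 1 UMI, and the highest count was 7. In polyp T cells 10 of the 61 Il17a-positive cells held 50% of its UMIs, with a highest count of 39. In normal T cells 62 of 376 Ifng-positive cells held 50%, with a highest count of 48. Counts of this kind vary more from cell to cell than a Poisson count, so the intervals above understate the error of a class level.

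**Figure D3:**
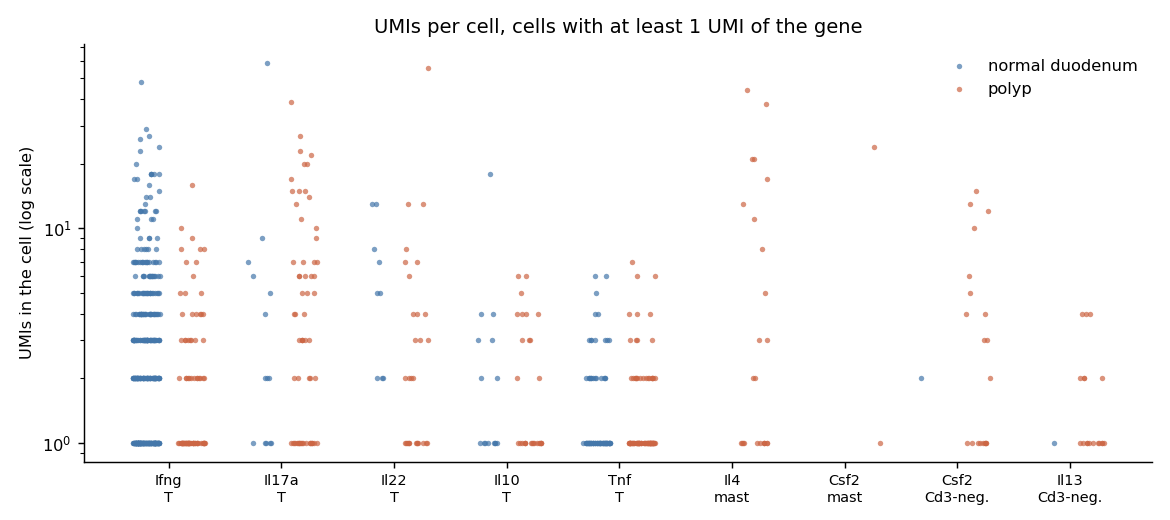
UMIs per cell (y axis, log scale) in cells with at least 1 UMI of the gene, for the gene and class named on the x axis, normal in blue and polyp in orange, 1 point per cell spread sideways for visibility. Single cells reach 59 UMIs of Il17a in normal T cells, 56 of Il22 in polyp T cells and 24 of Csf2 in polyp mast cells.

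Il17a and Il22 shared cells. In polyp T cells 14 of the 30 Il22-positive cells also held Il17a, where the product of the 2 shares gives 3.71 cells, and in normal T cells 4 of 9 did, where the product gives 0.154. Il17f was found with Il17a in 4 of its 5 polyp cells. Ifng and Il17a were seldom found together: 3 polyp cells held both against 10.9 by the product, and 1 normal cell against 6.44. These are counts over cells of 1 library each, given as a description.

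Cells positive for each cytokine differed in what else they held. Of the 61 Il17a-positive polyp T cells, Rora, a type 17 factor, was found in 77.0% against 52.5% of the other T cells, and Tmem176a in 67.2% against 31.2%. Nkg7, a cytotoxic granule gene, was found in 1.64% against 28.2%, and Trdc in 21.3% against 6.25%. Foxp3, the regulatory T cell factor, and Cd8a were found in 0 of the 61. Median depths of positive and other cells were 2241 and 2186 UMIs.

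The 88 Ifng-positive polyp T cells had the reverse profile, with Nkg7 in 56.8% against 18.0%, Cd8a in 17.0% against 2.72% and Rora in 39.8% against 59.0%. The 30 Il22-positive polyp T cells held Nkg7 in 0 and Trdc in 0, and the IL-23 receptor gene Il23r in 16.7% against 2.38%. The 28 Il10-positive polyp T cells held Maf, a factor for Il10 transcription, in 92.9% against 41.5%, Icos in 64.3% against 39.6% and Foxp3 in 14.3% against 5.81%. The 9 Il22-positive normal T cells held Nkg7 in 0 against 91.3% and Icos in 88.9% against 10.0%. The 14 Il17a-positive normal T cells held Nkg7 in 7.14% against 91.8% of other normal T cells, Icos in 78.6% against 9.71% and Maf in 78.6% against 10.7%.

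Type 2 cytokines were found in polyp mast cells and Cd3-negative lymphoid cells. The mast gate (3 UMIs over 2 genes of Cpa3, Ms4a2, Gata2, Tpsb2, Tpsab1, Cma1 and Kit) took 70 polyp cells, and the mast protease genes Mcpt1 and Mcpt2 with Hdc, none of them in the gate, were found in 81.4% of these. These 3 genes summed to 26141 CPM in the mast gate. They were also found in 76.2% of polyp myeloid cells of the S100a8 and S100a9 class, at 1570 CPM, and in 18.2% of polyp epithelial cells, at 27.2 CPM. Mcpt8, a basophil marker, was found in 6 of the 70 mast cells. The normal library had 0 mast cells of 3167, which by the floor of 3 cells allows a share of up to 0.0947%, so no mast cell level can be compared between the libraries.

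Il4 stood at 1265 CPM (1095 to 1454) in polyp mast cells, 199 UMIs in 24 of 70 cells (34.3%, 23.3 to 46.6), and in 12 of the 56 cells of at least 1000 UMIs after thinning. The next class, Cd3-negative lymphoid cells at 86.3 CPM (59.0 to 122), was clear of it, and T cells of the polyp library held 3 Il4 UMIs in all. The highest mast cell held 44 UMIs, and the level without it was 1071 CPM. Of Il4-positive mast cells, 54.2% held Hdc, the histamine-forming enzyme gene, against 28.3% of the others, and 50.0% held Il6 against 21.7%. Their median depth was 2532 against 1574 UMIs. Epithelial cells gave a background of 0.402% positive cells.

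Il13 stood at 121 CPM (72.7 to 189) in mast cells and at 83.6 CPM (56.8 to 119) in Cd3-negative lymphoid cells, so its 2 sources overlapped. Tnf stood at 337 CPM (252 to 441) in mast cells, in 22 of 70 cells. Csf2 had 25 UMIs in mast cells, but 24 of them lay in 1 cell and the level without it was 6.43 CPM. Within mast cells Il4 and Il13 were found together in 7 cells against 3.43 by the product of shares, and Il4 and Tnf in 12 against 7.54. Since positive mast cells were deeper, the part of depth in these counts was not tested. Il5 had 0 UMIs in mast cells.

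Cd3-negative lymphoid cells, which lack Cd3 UMIs and carry at least 2 of 14 lymphoid genes, were the main class for Il5. Among classes of at least 30 cells they also had the highest Csf2 level, overlapping that of mast cells (159 CPM, 103 to 235). Il5, the eosinophil growth factor, was counted 18 times in 8 of 159 polyp cells (48.6 CPM, 28.8 to 76.8), 54.5% of its 33 UMIs. Csf2 was counted 86 times in 20 cells (232 CPM, 186 to 287), of 231 UMIs in all kept polyp cells, with 67 in epithelium. The 16 normal cells of this class held 0 Il5 and 2 Csf2 UMIs, and a floor of 3 UMIs in them equals 72.6 CPM, so an Il5 level like that of the polyp was not detectable. For Csf2 the ratio was 4.79 with an interval from 1.29 to 40.2. Its 2 normal UMIs, under the floor of 3, lay in 1 cell, so the ratio rests on that cell.

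Cells of this class that held type 2 cytokines often held Gata3. Gata3, the type 2 factor, was found in 18 of 18 Il13-positive cells against 27.0% of the others, and in 8 of 8 Il5-positive cells against 31.8%. It was found in 85.0% of Csf2-positive cells against 28.1%. Il13-positive cells also held Areg, which encodes the epithelial growth factor amphiregulin, in 61.1% against 27.0%, the IL-25 receptor gene Il17rb in 38.9% against 7.09%, and the neuropeptide gene Calca in 33.3% against 4.26%. Il5 and Csf2 were found together in 5 cells against 1.01 by the product of shares, Il13 and Csf2 in 6 against 2.26, and Il5 and Il13 in 3 against 0.906. Il4 was found with Il13 in 1 cell against 1.47, with Il5 in 2 against 0.654 and with Csf2 in 2 against 1.64. The 13 Il4-positive cells held Gata3 in 84.6% against 30.8%, Trbc2 in 84.6% against 32.9% and Trac in 0 against 24.0%. Il13-positive cells held Trbc2 in 55.6% against 34.8% and Il5-positive cells in 37.5% against 37.1%. The 7 Ifng-positive cells held Nkg7 in 71.4% against 20.4% and the natural killer receptor gene Ncr1 in 42.9% against 5.26%.

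Lack of a Cd3 UMI did not set the class fully apart from T cells, since 99 of its 159 polyp cells held a UMI of a T cell receptor constant gene. The 28 Il17a and 15 Ifng UMIs of the class lay wholly in those 99 cells. Of Il5, 6 of 18 UMIs lay in the 60 cells without such a UMI, of Il13 9 of 31, of Csf2 14 of 86 and of Il22 13 of 23. In the 60 cells the levels were 93.2 CPM for Csf2 and 19.97 CPM for Il4, against 232 and 86.3 CPM in the whole class.

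**Figure D4:**
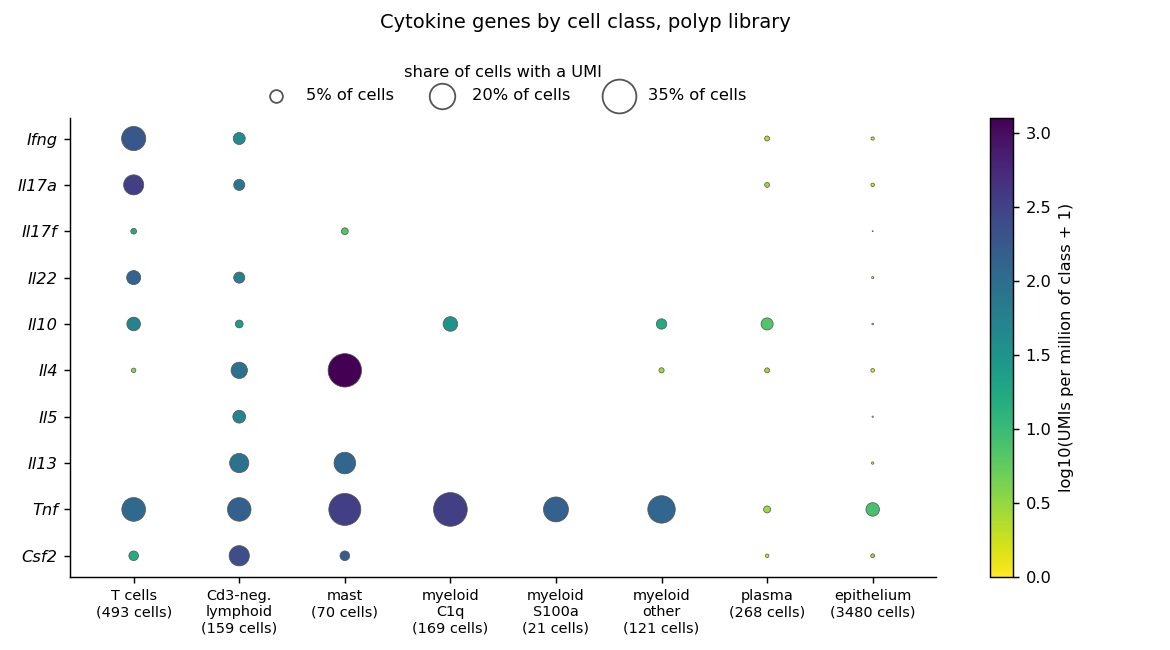
The 10 cytokine genes (rows) in 8 classes of the polyp library (columns, with cell numbers), where dot area gives the share of cells with a UMI and colour gives log10 of CPM plus 1. Il4 peaks in mast cells (34.3% of cells), Il5 is found in Cd3-negative lymphoid cells and not in mast cells, and Tnf is highest in mast and C1q-positive myeloid cells.

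Tnf had its highest levels in polyp mast cells (337 CPM) and in myeloid cells with C1q, complement genes typical of macrophages, with 334 CPM (284 to 391) in 59 of 169 cells. The interval of polyp Trdc T cells (225 CPM, 139 to 343) overlapped those of both. Normal C1q-positive cells stood at 219 CPM (128 to 350) in 5 of 18 cells, a ratio of 1.53 whose interval (0.924 to 2.69) included 1. Other polyp myeloid cells stood at 123 CPM (96.0 to 155). Il10 was counted 15 times in 11 of 169 polyp C1q-positive cells (32.2 CPM) and 1 time in the 18 normal cells.

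In epithelial cells, the targets of most of these cytokines, Tnf was lower in the polyp library, 14.1 CPM (12.2 to 16.2) against 6.99 CPM (6.21 to 7.85), 2.02-fold (1.67 to 2.43). Csf2 was higher, 0.661 against 1.63 CPM with a ratio of 2.47 (1.23 to 5.64), where 17 of 67 polyp UMIs lay in 1 cell. Ifng, 1.03 against 0.438 CPM from 14 and 18 UMIs, met the rule for lower, but these UMIs serve as the background above and are not read as expression. Of the 5 members measured 1 was higher and 2 were lower, against 26.9% and 19.2% of 13884 genes.

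For members with at least 100 UMIs, the genes most like each in log2(CPM + 10) over 22 library-by-class points of at least 30 cells, which share libraries and depth, are given by Pearson's r. Ifng was most like Trac (r = 0.971), Nkg7 (0.970) and Lck (0.968). Il17a was most like Tnfsf11, which encodes RANK ligand (0.901), and Il22 was most like Slamf1 (0.891), as was Il10 (0.786). Il4 was most like the chemokine gene Ccl1 (0.943) and the mast cell chymase gene Cma1 (0.925), itself a gate gene, Tnf was most like Nfkbid (0.899), and Csf2 was most like Lif (0.860). Il17f, Il5 and Il13 had too few UMIs.

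Transcription factors known to direct these cytokines differed between the libraries' T cells. Of 17 measured 9 were higher and 3 lower, with a median log2 ratio of 0.71 against -0.05 for all genes, of which 16.4% were higher and 16.5% lower. Tbx21, the type 1 factor T-bet, stood at 29.1 and 6.63 CPM, a ratio of 0.228 (0.0952 to 0.471), and its partners Runx3 (413 and 165 CPM) and Stat4 (164 and 96.9 CPM) were lower too. Rora stood at 115 and 547 CPM, a ratio of 4.78 (4.17 to 5.48). Maf (76.1 and 396 CPM), Gata3 (33.7 and 125 CPM) and Foxp3 (2.51 and 38.9 CPM) were higher. In Trdc T cells 5 of 10 were higher and 3 lower, against 10.8% and 10.9% of all genes, with Rora at 25.9 and 877 CPM and Maf at 16.6 and 299.5 CPM. In T cells with no subset marker 9 of 17 were higher and 3 lower, against 14.2% and 14.5% of all genes. In Cd4 T cells 5 of 11 were higher and 1 lower, against 10.2% and 13.3%.

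Of a list of cytokines that induce the 10 genes and of their receptors, most genes measured in T cells and in epithelium were higher. The inducing cytokine genes Il1b, Il6, Il12a and Il12b had at most 4 UMIs in T cells of either library and were not measured there. In T cells 7 of 9 measured were higher and 0 lower, against 16.4% and 16.5% of all genes, among them Il1r1 (1.44 and 17.4 CPM), Il23r (1.80 and 14.1 CPM), Il18r1 (13.3 and 112 CPM) and the IL-33 receptor gene Il1rl1 (0.359 and 19.9 CPM, from 1 and 24 UMIs). Il12rb2, the IL-12 receptor gene that favours Ifng, stood at 15.8 and 8.28 CPM with an interval that included 1. In epithelium 6 of 9 were higher and 0 lower, against 26.9% and 19.2% of all genes, including the alarmins Il33 (2.20 and 10.2 CPM) and Tslp (0.440 and 1.75 CPM). In myeloid cells 4 were measured, 1 higher and 1 lower, against 9.04% and 7.12% of 5208 genes. There Il1b, an inducer of type 17 cytokines, stood at 391 and 844 CPM, and Il12b at 57.5 and 14.9 CPM from 10 and 16 UMIs.

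Of other lymphocyte cytokines 6 of 13 were higher and 6 lower in T cells (median log2 ratio 0.87), against 16.4% and 16.5% of all genes. In T cells with no subset marker 4 of 11 were higher and 6 lower (median -1.57), against 14.2% and 14.5%. The chemokines Ccl5 (29235 and 3237 CPM), Ccl4 (3378 and 803 CPM) and Ccl3 (341 and 41.4 CPM), with Fasl and Xcl1, were lower, as was Tnfsf10. Areg (42.0 and 210 CPM) and Tnfsf11 (3.23 and 79.5 CPM) were higher. Receptors for the 10 cytokines differed by cell. In T cells 7 of 10 were higher and Il10rb was lower, against 16.4% and 16.5% of all genes. In epithelium 4 of 13 were higher and 4 lower, near the 26.9% and 19.2% of all genes there. In fibroblasts 0 of 8 were higher and 1 lower, against 9.29% and 11.6% of 5262 genes. The interferon-gamma receptor genes Ifngr1 (95.1 and 58.0 CPM) and Ifngr2 (77.4 and 31.1 CPM) were lower in epithelium. The IL-17 receptor genes went opposite ways there, Il17re at 1.98 and 13.9 CPM and Il17rc at 40.5 and 15.2 CPM, while Il17ra stood at 4.26 and 4.92 CPM. The IL-22 receptor gene Il22ra1 had 10 normal and 7 polyp UMIs in epithelium, too few for a call. Its levels there were 0.734 and 0.1705 CPM, a ratio of 0.232 (0.075 to 0.676).

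Genes that these cytokines are known to induce were read in the epithelium, pooled over all its cell types, whose makeup was not matched between the libraries. The median log2 ratio of all genes there was 0.10, and 26.9% of them were higher and 19.2% lower, the shares against which the counts of each list stand. Of 9 interferon-gamma response genes 4 were lower and 1 higher (median -0.59): Ciita, the switch for MHC class II genes, stood at 5.80 and 0.122 CPM, and Igtp at 35.5 and 2.68 CPM, whereas Cxcl10 was higher at 12.2 and 38.7 CPM. Of 8 IL-22 response genes 6 were higher and 0 lower (median 2.09), led in level by the antimicrobial lectins Reg3b (380 and 4105 CPM) and Reg3g (334 and 1529 CPM), with Fut2 at 6.83 and 54.0 CPM. Sprr2a2 belongs to a family of near-identical copies, and its count is uncertain. The IL-22 receptor gene Il22ra1 had few UMIs in epithelium, as given above, and the part of IL-22 in the levels of these 8 genes was not tested.

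IL-17 response genes split. Of 10, 4 were higher, namely Cxcl1, Cxcl5, Duox2 and Duoxa2, and 4 lower, namely Ccl20, Pigr, Lcn2 and Nos2 (median -0.11). Nos2 was counted 66 times in normal and 0 times in polyp epithelium. Of 7 IL-4 and IL-13 response genes 3 were higher and 1 lower (median 1.38): Dclk1, a tuft cell gene, stood at 0.661 and 2.80 CPM, and Retnlb, a goblet cell product, at 1.03 and 0.292 CPM. Sprr2a3, among the higher ones, has near-identical copies and is uncertain. Of 9 TNF response genes 5 were higher, including Cxcl2 at 1.32 and 12.5 CPM, and 2 lower, including Nfkbia at 591 and 290 CPM (median 0.88).

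**Figure D5:**
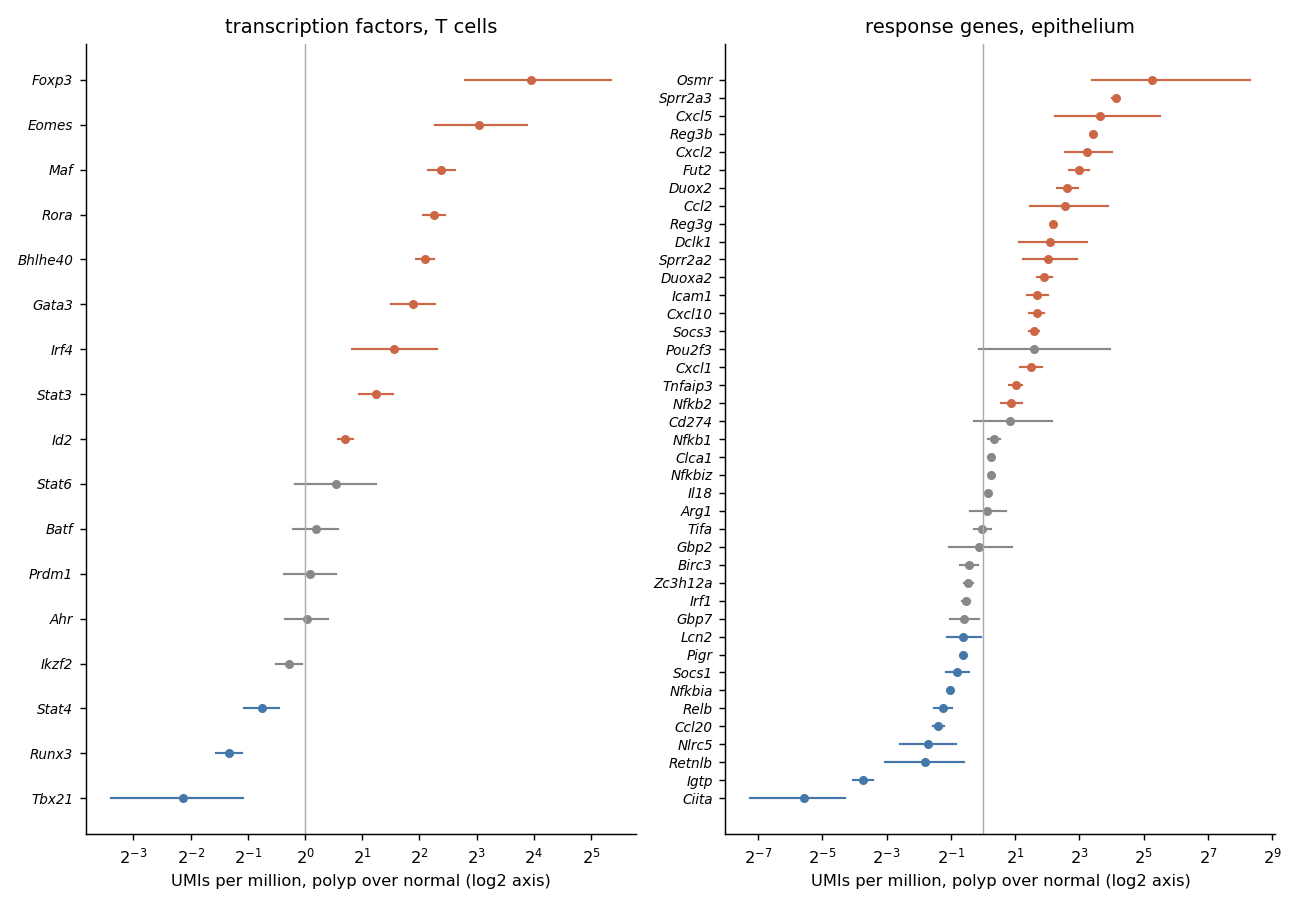
Ratio of polyp to normal level (CPM, log2 axis) with 95% counting intervals for transcription factors in T cells (left) and response genes in epithelium (right), orange for higher, blue for lower and grey for neither. Genes with 0 UMIs in a library (Nos2 and Chil3) are not drawn. Tbx21 and Runx3 lie left of 1 and Rora and Maf right of it.

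Part of the polyp molecules lay in cells that no gate took. Of these, 174 cells with a single Cd3 UMI held 87 Il17a, 49 Il10 and 38 Ifng UMIs, and 2591 cells with no Cd3 UMI and no gate held 35 Il4 and 27 Il13 UMIs. The corresponding 81 normal cells with a single Cd3 UMI held 2 Ifng and 0 Il17a UMIs. These molecules entered none of the levels of gated classes above. The cells that no gate or equal gates took were, in each library, among the 22 points of the correlations.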

How the data were processed

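The deposited values were raw UMI counts per gene and barcode, which the authors made with Cell Ranger, version 3.0.0 per the submitters' processing notes and 5.0.0 per the file headers, against mm10. The labels describe digestion in 0.2% collagenase for 40 min and a 40 µm strainer. Libraries held 39222238 and 63566462 UMIs. Barcodes were kept with at least 500 UMIs, 250 genes and at most 25% mitochondrial UMIs. Scrublet in scanpy 1.11.5 called 0 doublets automatically, so the 85 and 573 highest scores were removed, up to a rate of 0.8% per 1000 cells. Classes were set by marker UMIs, and the gate with most UMIs won. Levels have exact Poisson intervals, ratios conditional binomial intervals and shares Clopper-Pearson intervals (scipy 1.17.1), with a floor of 3 for a count of 0, and the ratio code was tested on simulated data. The named genes were the 10 members, the listed gene sets, and the 3 genes most like each member. One gene of the transcription factor list is not reported here, and its counts leave that gene out. Members and lists were chosen with earlier results of these data known. Alternatives changed the barcode filter, doublets, gates, the Cd3 minimum, the scaling and single top cells.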

Additional observations from a re-analysis of the deposited data

Results flagged for a closer look

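Il10 went opposite ways in 2 T cell gates. Its ratio of polyp to normal was 0.335 in Cd4 T cells and 5.02 in T cells with no subset marker. Over all T cells it was 3.25. The difference between the gates was not tested, and the Cd4 value rested on 1 normal cell. In the polyp library both gates held Cd40lg, Icos, Cd5 and Foxp3 at like summed levels (643 and 615 CPM). Tnf was higher in polyp T cells (ratio 2.42 in all T cells, 17.4 in Trdc T cells and 2.16 in T cells with no subset marker) and lower in polyp epithelium (0.496), and this difference was not tested either.

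Barcodes that were not kept, mostly for their mitochondrial share or as doublets, held 424 UMIs of the 10 genes in the normal and 466 in the polyp library. These lay outside every main comparison above, and some entered only the values given with no barcode filter or with doublets kept.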

How the results depend on the processing

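No paired analysis was possible because each group was 1 library. Across 285 recomputed ratios and levels, 263 stayed within the counting interval of the reported value and 22 moved beyond it. No called ratio changed direction, and of the others the Il22 ratio in Cd4 T cells crossed 1, from 1.57 to 0.698 with single-gate cells only. Leaving out the cell with most UMIs in each library accounted for 10 of the 22. The Il17a ratio in T cells was 20.02 without those cells and 6.70 as a mean over cells, against 9.21 as reported, and it lay between 7.61 and 9.60 under the other settings. The Ifng ratio lay between 0.303 and 0.345. Of the members, 6 were higher and 1 lower in T cells under each of the 9 settings counted but a minimum of 3 Cd3 UMIs, which left 4 higher. The count was not made without the top cells or as a mean over cells. The Il17a ratio in Cd4 T cells was 1.92 with no barcode filter, with an interval that included 1, against 7.16 as reported with the floor. A wider mast gate, chosen after seeing the data, took 89 polyp and 3 normal cells and gave Il4 a level of 1013 CPM. Depth limits the normal non-T classes: with 16 Cd3-negative lymphoid cells and 0 mast cells, low levels of type 2 cytokines there could not have been detected. Poisson intervals understate the error because a minority of the positive cells holds many of the molecules.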
